A study of Mus musculus with 9 samples.

Results

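Wnt ligands, their receptors and the proteins that release, strengthen or damp their signal were followed in mouse lung. The members were the gene symbols that begin with Wnt, Fzd, Sfrp, Dkk or Rspo followed by a digit, together with Lgr4, Lgr5, Lgr6, Axin1, Axin2, Lrp5, Lrp6, Porcn, Wif1 and Notum. This gave 51 of the 25526 names in the expression table. Lungs came from 9 mice, 3 labelled normal, 3 labelled pulmonary fibrosis model and 3 labelled PepNzymeSOD-CAT, an inhalable polypeptide nanozyme (a material with enzyme-like activity) whose name points to superoxide dismutase and catalase. The last group is called the nanozyme group below. The labels used here do not give the strain, sex or age of the mice, the agent that induced fibrosis, the nanozyme dose, the time of sampling, or whether the nanozyme mice also went through the fibrosis procedure. The series asked by which mechanism the nanozyme acts in lung fibrosis. Each library was made from the lung of 1 mouse with selection of polyadenylated RNA, and each value is an FPKM, that is, a fragment count scaled to transcript length and library size.

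Wnt proteins are secreted lipid-modified signals. In the canonical branch a ligand joins a Frizzled receptor and an Lrp5 or Lrp6 co-receptor, which stops the Axin scaffold from helping to destroy beta-catenin, and beta-catenin then works with TCF/LEF proteins at target genes. R-spondins bound to Lgr receptors keep Frizzled proteins at the cell surface, whereas Sfrp, Wif1, Notum and some of the Dkk proteins act outside the cell to limit the signal. In the adult lung, fibroblasts and epithelial cells exchange Wnt signals, and the pathway is known for its part in alveolar type 2 cell maintenance and in repair after injury.

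Of the 51 members, 33 reached 1 FPKM in at least 3 of the 9 libraries and were tested, and 18 did not. The tested members comprised 11 of 19 ligands, 8 of 10 Frizzled receptors, 6 of 10 secreted inhibitors, 1 of 4 R-spondins, 2 of 3 R-spondin receptors, both co-receptors, both Axin scaffolds and Porcn. Wnt1, Wnt8b, Dkk1 and Dkk4 were listed at 0 in all 9 libraries. The other 14 untested members were Wnt3, Wnt6, Wnt8a, Wnt9b, Wnt10a, Wnt16, Fzd9, Fzd10, Rspo2, Rspo3, Rspo4, Lgr5, Dkk2 and Sfrp5, and their highest value in any library was 1.03 FPKM. Summed over the ligands, the level was 57.6 ± 2.20 FPKM in normal, 34.9 ± 6.93 in model and 48.1 ± 17.5 in nanozyme lung (mean ± SD, n = 3 mice, as in all group values below). The Frizzled sum was 77.0 ± 0.878, 53.9 ± 12.9 and 71.0 ± 16.3 FPKM in the same order, and the sum of secreted inhibitors was 42.6 ± 2.03, 52.5 ± 12.9 and 49.5 ± 5.67 FPKM. Most of the inhibitor sum came from Dkk3, with means of 25.8, 20.7 and 22.4 FPKM, and Sfrp1, with 4.22, 23.8 and 11.2. Genes were placed in this class by symbol, so Dkk3 counts there whether or not it limits Wnt signals. The higher inhibitor sum in model lung thus reflects Sfrp1 and not the class as a whole.

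Some libraries stood apart before any member was tested. FPKM sums per library ran from 443746 to 519772, and without read counts neither depth nor counting error could be given. Nanozyme replicate 2 lay at 43.3 on the first principal component of all tested genes, within the model range of 39.5 to 61.2, whereas nanozyme replicates 1 and 3 lay at -14.4 and -9.68. Markers of alveolar type 2 cells (5 genes, 7451 to 29239 FPKM summed) and club cells (3 genes, 5602 to 75399) were high in each library, as the lung label requires. Skeletal muscle markers (4 genes) summed to 742 FPKM in nanozyme replicate 1 and to 144 in model replicate 2, against at most 8.57 in the other 7 libraries. In bulk lung, fewer cells of a type and less RNA per cell cannot be told apart.

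The first comparison set model lung against normal lung. In model lung 1 tested member was higher (Sfrp1) and 10 were lower (Wnt4, Wnt10b, Wnt11, Porcn, Fzd3, Fzd6, Fzd8, Lrp6, Wif1 and Notum) at an adjusted p under 0.05 by limma. Over all 14540 tested genes 40.1% were called in this comparison, 17.4% higher and 22.7% lower, so the share of members called (33.3%) did not exceed the background. By direction, 3.03% of the tested members were called higher and 30.3% lower. The median log2 change was -0.47 over the 33 members and -0.12 over all tested genes. The estimate was below 0 for 29 members (87.9%), against 59.4% of all genes. It was below 0 for 28 when column sums were made equal or with quantile normalization, where Fzd1 turned above 0, and for 27 with median-of-ratios scaling, where Fzd1 and Axin1 did, and that last scaling moved the median of all genes by 0.13. Without model replicate 2 the members' median was -0.26, with 26 below 0, beside -0.08 over all genes, and with sample weights it was -0.28, beside -0.10. The groups did not overlap for 17 of the 33 members, against 58.5% of all tested genes. An unadjusted p under 0.05 was reached by 14 of the 33 members and by 50.3% of all genes. With 3 mice against 3, an exact permutation test of 1 gene cannot give a p below 0.10, and none was run. Without normal replicate 1, 1 member was called higher and 6 lower, where 13.4% of all genes were higher and 13.7% lower. Sample weights called 2 higher and 13 lower, where 22.4% of all genes were higher and 30.7% lower.

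**Figure D1:**
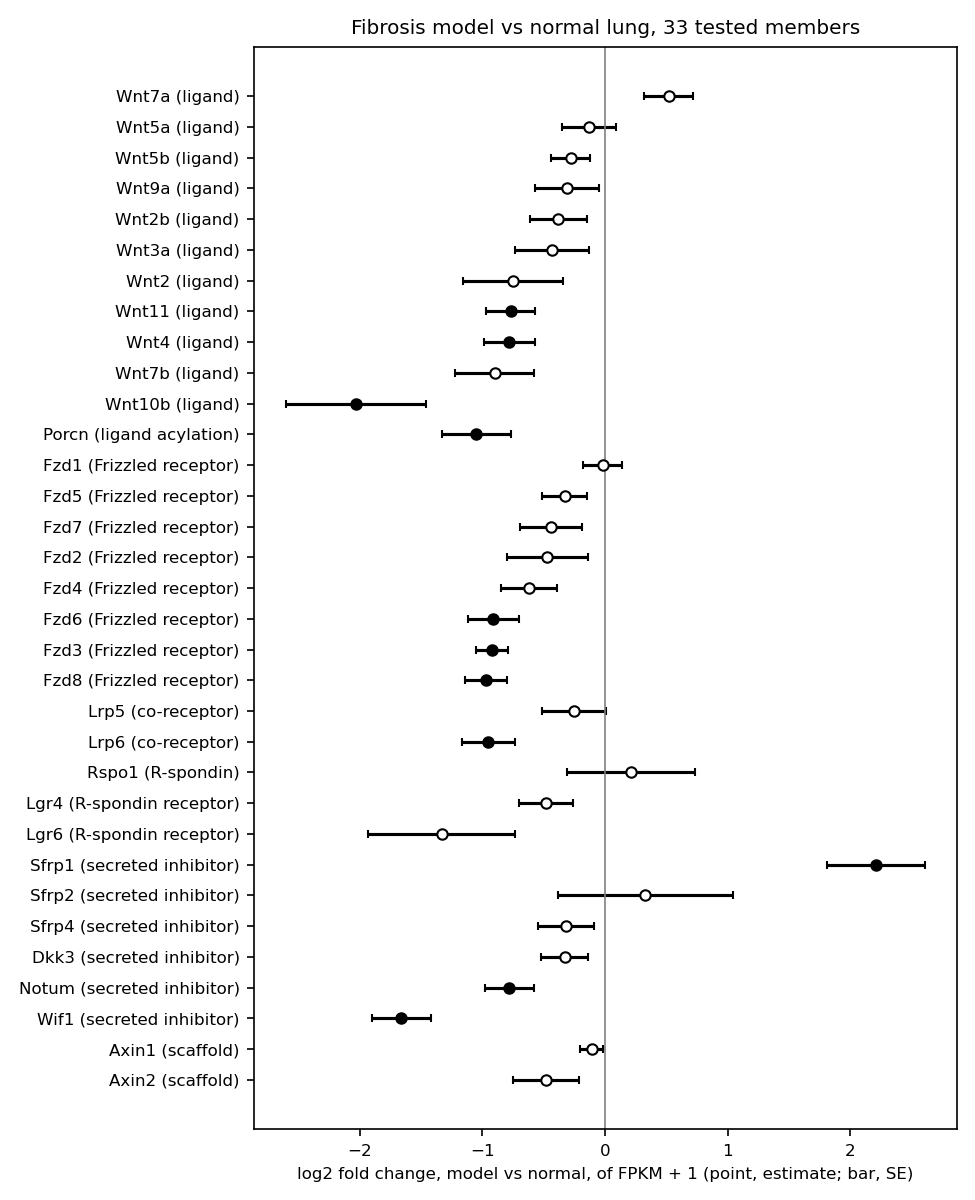
Log2 fold change of FPKM + 1 in model against normal lung for the 33 tested members, ordered by role, with points for the estimate, bars for its SE and filled points for adjusted p under 0.05. Most points lie left of 0, Sfrp1 is the only filled point on the right, at 2.21, and Wnt10b lies farthest left at -2.03.

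Among the ligands 3 of 11 tested (27.3%) fell in model lung and 0 rose, where 22.7% of all tested genes were called lower and 17.4% higher. Wnt10b, a ligand of the canonical branch, was at 7.81, 10 and 7.79 FPKM in normal replicates 1, 2 and 3, at 2.02, 0.440 and 1.87 in the model and at 10.7, 1.05 and 4.40 in the nanozyme group. All 3 model libraries lay below the normal ones, and the nanozyme libraries spanned both groups, with replicate 2 inside the model range. The ratio of the model mean to the normal mean was 0.169, and the change was -2.03 ± 0.57 (log2, SE, on the scale of FPKM + 1, adjusted p = 0.0222). This call ended without any 1 of the normal libraries (adjusted p = 0.0559, 0.0649 and 0.0567 without replicates 1, 2 and 3) and without model replicate 2 (0.0736). Wnt10b lies at chr15:98770712-98778150 on the minus strand of GRCm38, 11.7 kb from Wnt1, which was listed at 0.

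Wnt11 and Wnt4 can act through the non-canonical branch. Wnt11 was at 12.7, 8.53 and 13.7 FPKM in normal, 6.45, 5.63 and 6.82 in model and 6.56, 4.32 and 6.34 in nanozyme lung. Both the model and the nanozyme libraries lay below every normal library, and nanozyme replicate 2 was the lowest of the 9. Its change in model lung was -0.77 ± 0.20 (adjusted p = 0.0158), a call that ended without normal replicate 1 (0.0585) or 3 (0.0627). Wnt4 was at 7.53, 4.75 and 5.64 FPKM in normal, 3.87, 3.02 and 2.24 in model and 3.85, 2.58 and 3.35 in nanozyme lung. No normal library overlapped with the other 6. The Wnt4 change was -0.78 ± 0.21 (adjusted p = 0.0173) in model lung, and the call ended without normal replicate 1 (0.0628) or model replicate 3 (0.0546).

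The stretches just upstream of 4 of the 11 members called in model lung are shown because these genes fell together and have an entry among the RefSeq promoters (GRCm38.p6). Each line reads 5′ to 3′ on the strand of the gene and stops where the GENCODE gene begins. Capitals mark the core letters bound by TCF/LEF proteins, CTTTGAT or its reverse complement ATCAAAG, searched on both strands.
Wnt11: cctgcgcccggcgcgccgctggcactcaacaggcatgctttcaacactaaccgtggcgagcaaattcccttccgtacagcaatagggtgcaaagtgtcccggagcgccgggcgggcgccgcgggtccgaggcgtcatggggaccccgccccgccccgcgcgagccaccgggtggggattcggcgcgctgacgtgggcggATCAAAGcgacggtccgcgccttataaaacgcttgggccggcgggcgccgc
Wnt10b: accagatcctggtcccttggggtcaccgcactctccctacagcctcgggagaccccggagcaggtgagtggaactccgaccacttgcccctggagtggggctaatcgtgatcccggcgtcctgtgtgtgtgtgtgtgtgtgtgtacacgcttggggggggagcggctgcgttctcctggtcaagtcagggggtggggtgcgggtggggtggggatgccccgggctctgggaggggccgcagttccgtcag
Wnt4: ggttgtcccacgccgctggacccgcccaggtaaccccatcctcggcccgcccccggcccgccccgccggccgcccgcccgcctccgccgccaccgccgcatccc
Wif1: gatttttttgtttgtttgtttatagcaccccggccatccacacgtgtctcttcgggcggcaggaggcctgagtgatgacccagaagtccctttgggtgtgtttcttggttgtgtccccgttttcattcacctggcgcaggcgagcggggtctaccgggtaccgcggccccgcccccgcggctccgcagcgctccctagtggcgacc
The Wnt11 stretch is chr7:98834862-98835111 (plus strand, 250 bases, 70.8% G or C, 37 CpG), and its 1 match begins 51 bases before the RefSeq start. The Wnt10b stretch is chr15:98778151-98778400 (minus strand, 250 bases, 66.8% G or C, 14 CpG). Wnt4 is shown from chr4:137277385-137277488 (plus strand, 104 bases, 83.7% G or C, 16 CpG), and Wif1 from chr10:121033754-121033959 (plus strand, 206 bases, 61.7% G or C, 17 CpG). The letters were not in these 3 windows. In the 250 bases before the start they occurred in 3.21% of 32851 RefSeq windows and in 2 of 34 windows of the members, of which 31 have an entry. A match is a string of letters and was not tested as a binding site.

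Wnt7a, another ligand, was the only tested ligand with an estimate above 0 in model lung. Its level was 2.90, 3.75 and 3.47 FPKM in normal, 6.2, 4.5 and 5.2 in model and 9.64, 5.41 and 6.01 in nanozyme lung. Every model and nanozyme library lay above the normal libraries. The change in model lung was 0.52 ± 0.20 and missed the threshold (adjusted p = 0.0688), and it passed under 6 of the 19 alternatives, at adjusted p from 0.0181 to 0.0496. Among these were median-of-ratios scaling (0.0250) and a fit of the 2 groups alone (0.0276).

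The abundant ligand Wnt3a, which signals through beta-catenin, was at 6.08, 8.24 and 6.87 FPKM in normal, 6.78, 3.37 and 5.15 in model and 11.4, 4.90 and 9.37 in nanozyme lung. Normal and model libraries overlapped, and the change was -0.43 ± 0.30 (adjusted p = 0.275). Wnt3a and Wnt9a lie on opposite strands of chromosome 11, 16.2 kb apart, and Wnt9a changed by -0.31 ± 0.26 (adjusted p = 0.359). Wnt2, Wnt2b, Wnt5a, Wnt5b and Wnt7b had mean levels of 0.730 to 4.73 FPKM over the 9 libraries. Their estimates ran from -0.90 to -0.13, and none of the 5 passed. The largest of these was that of Wnt7b (-0.90 ± 0.32, adjusted p = 0.0547), which passed with sample weights (0.0242) and without normal replicate 2 (0.0147), whose 3.29 FPKM was the lowest normal value beside 9.65 and 5.97. Only the estimate of Wnt5a turned, to 0.14 without model replicate 2.

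Porcn encodes the acyltransferase of the endoplasmic reticulum that attaches the lipid a Wnt protein needs for secretion. It was at 29.1, 20.7 and 22.7 FPKM in normal, 16.6, 8.87 and 9.14 in model and 11.3, 11.4 and 19.2 in nanozyme lung. Normal libraries were above the other 6, and model replicate 1 and nanozyme replicate 3 were the highest of their groups. Porcn (chrX:8193848-8206525, minus strand) fell by 1.05 ± 0.28 on the log2 scale in model lung (adjusted p = 0.0177), with calls lost without normal replicate 1 (0.0652), model replicate 2 (0.0587) or model replicate 3 (0.0591).

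**Figure D2:**
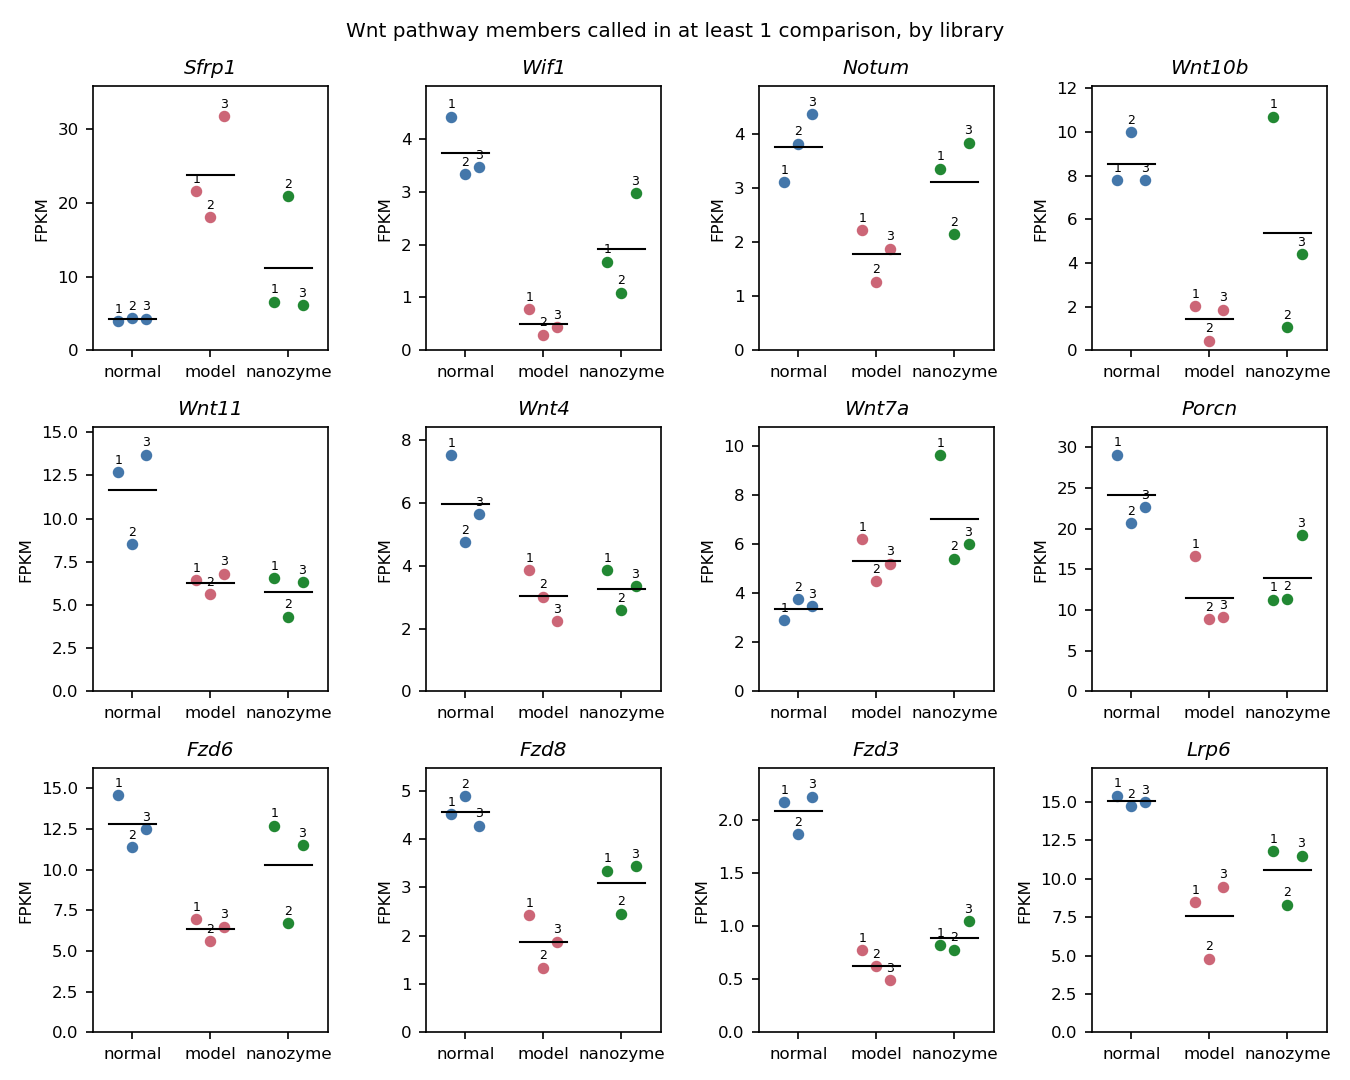
FPKM (linear axis from 0) of the 12 members called in at least 1 comparison, with 1 numbered point per mouse and a line at the group mean. Nanozyme replicate 2 lies inside the model range for Sfrp1, Notum, Wnt10b, Wnt4, Wnt7a, Porcn, Fzd6 and Lrp6.

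Frizzled receptors, the membrane proteins that bind Wnt ligands, fell in 3 of 8 tested cases (37.5%) and rose in 0. Over all tested genes 22.7% were called lower and 17.4% higher. Fzd6 was at 14.6, 11.4 and 12.5 FPKM in normal, 6.96, 5.62 and 6.5 in model and 12.7, 6.71 and 11.5 in nanozyme lung. The model libraries lay below the normal ones without overlap, and nanozyme replicates 1 and 3 lay inside the normal range. Its change was -0.91 ± 0.21 (adjusted p = 0.0108). Fzd8 was at 4.52, 4.89 and 4.28 FPKM in normal, 2.42, 1.34 and 1.88 in model and 3.35, 2.46 and 3.44 in nanozyme lung. For Fzd8 the 3 groups did not overlap, and nanozyme lung lay between the others. The Fzd8 change was -0.97 ± 0.17 (adjusted p = 0.00337).

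Fzd3, a receptor best known from axon guidance and planar cell polarity, was the least abundant of the called members. Its levels were 2.17, 1.87 and 2.22 FPKM in normal, 0.777, 0.621 and 0.493 in model and 0.825, 0.781 and 1.05 in nanozyme lung. Here too the 3 groups were separate, and nanozyme lung stayed nearer to model lung. The change was -0.92 ± 0.13 (adjusted p = 0.00170), the smallest adjusted p of the 33 members in this comparison. The calls of Fzd3, Fzd6 and Fzd8 in model lung were kept under the 19 alternatives run, with adjusted p up to 0.0430.

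The other 5 tested Frizzled genes did not pass. Fzd4, the receptor for Norrin as well as for Wnt ligands, was at 16.5, 15.5 and 16.4 FPKM in normal, 12.4, 6.80 and 12.4 in model and 17.7, 12.2 and 18.9 in nanozyme lung. Its model libraries lay below the normal ones, with replicate 2 far below the other 2, and the change was -0.62 ± 0.23 (adjusted p = 0.0651). It passed under 3 of the 19 alternatives, among them sample weights (0.0153) and the fit without nanozyme replicate 2 (0.0410). Fzd7 was at 9.82, 11.0 and 9.77 FPKM in normal, 8.32, 5.06 and 8.87 in model and 12.0, 6.23 and 10.7 in nanozyme lung. The model libraries lay below the normal ones, replicate 2 again the lowest, and the change was -0.44 ± 0.25 (adjusted p = 0.191). Fzd5 was at 5.99, 6.21 and 6.04 FPKM in normal, 6.03, 3.36 and 4.82 in model and 6.24, 4.61 and 5.14 in nanozyme lung, with overlapping groups (-0.33 ± 0.18, adjusted p = 0.169). Fzd1 was among the most even members, at 14.2, 16.8 and 15.6 FPKM in normal, 16.4, 12.1 and 18.1 in model and 15.2, 13.6 and 12.1 in nanozyme lung. Its estimate was -0.02 ± 0.16 (adjusted p = 0.945), which lay above 0 with quantile normalization (0.01), with equal column sums (0.06) and under median-of-ratios scaling (0.12).

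The co-receptors differed in outcome. Lrp6 was at 15.4, 14.7 and 15 FPKM in normal, 8.46, 4.80 and 9.49 in model and 11.8, 8.32 and 11.5 in nanozyme lung. Normal libraries lay above the other 6, and model replicate 2 was the lowest of the 9. Lrp6 (chr6:134446476-134566965, minus strand) changed by -0.95 ± 0.22 (adjusted p = 0.0111), and the call was kept under the alternatives run, with adjusted p up to 0.0386. Lrp5 was at 16.6, 18.1 and 17.1 FPKM in normal, 18.5, 9.20 and 17.3 in model and 22.9, 14.1 and 19.3 in nanozyme lung. Model replicates 1 and 3 lay near the normal libraries and replicate 2 below them, and the change was -0.25 ± 0.26 (adjusted p = 0.467), with a sign that turned without model replicate 2 (0.05). Whether the changes of Lrp5 and Lrp6 differed from each other was not tested.

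Model replicate 2 was the lowest library of its group for 27 of the 33 tested members, against 48.2% of all tested genes. Its members summed to 149 FPKM, against 234 and 225 in model replicates 1 and 3 and 262 to 273 in the normal libraries. This library also held the lowest marker sums of its group for resident fibroblasts (10 genes, 348 FPKM against 809 and 505), endothelial cells (5 genes, 272 against 549 and 473), pericytes (4 genes, 19.2 against 41.1 and 40.3), alveolar type 2 cells (7451 against 11038 and 10390) and alveolar type 1 cells (5 genes, 1134 against 1465 and 1177). Within the fibroblast list Dcn (99.4 FPKM against 75.1 and 46.0) and Lum (6.79 against 2.77 and 1.42) were highest in this library. So were the ciliated sum (337 against 318 and 183) and the cardiac muscle sum (37.0 against 27.0 and 5.13). Club and smooth muscle sums were lowest in model replicate 3. The resident fibroblast sum was 2063 to 2611 FPKM in normal lung and 728 to 2596 in the nanozyme group, and 5 of its 10 genes were lower in model lung. Epithelial and endothelial markers were lower there too, in 3 of 3 club, 4 of 5 ciliated, 3 of 5 alveolar type 2, 3 of 5 alveolar type 1 and 2 of 5 endothelial genes. Neutrophil markers moved the other way, with 5 of 5 genes higher and sums of 33.9 to 42.6 FPKM in normal and 2322 to 3050 in model lung. None of these markers was at 0 in all libraries, and their part in the changes of the members was not tested.

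**Figure D3:**
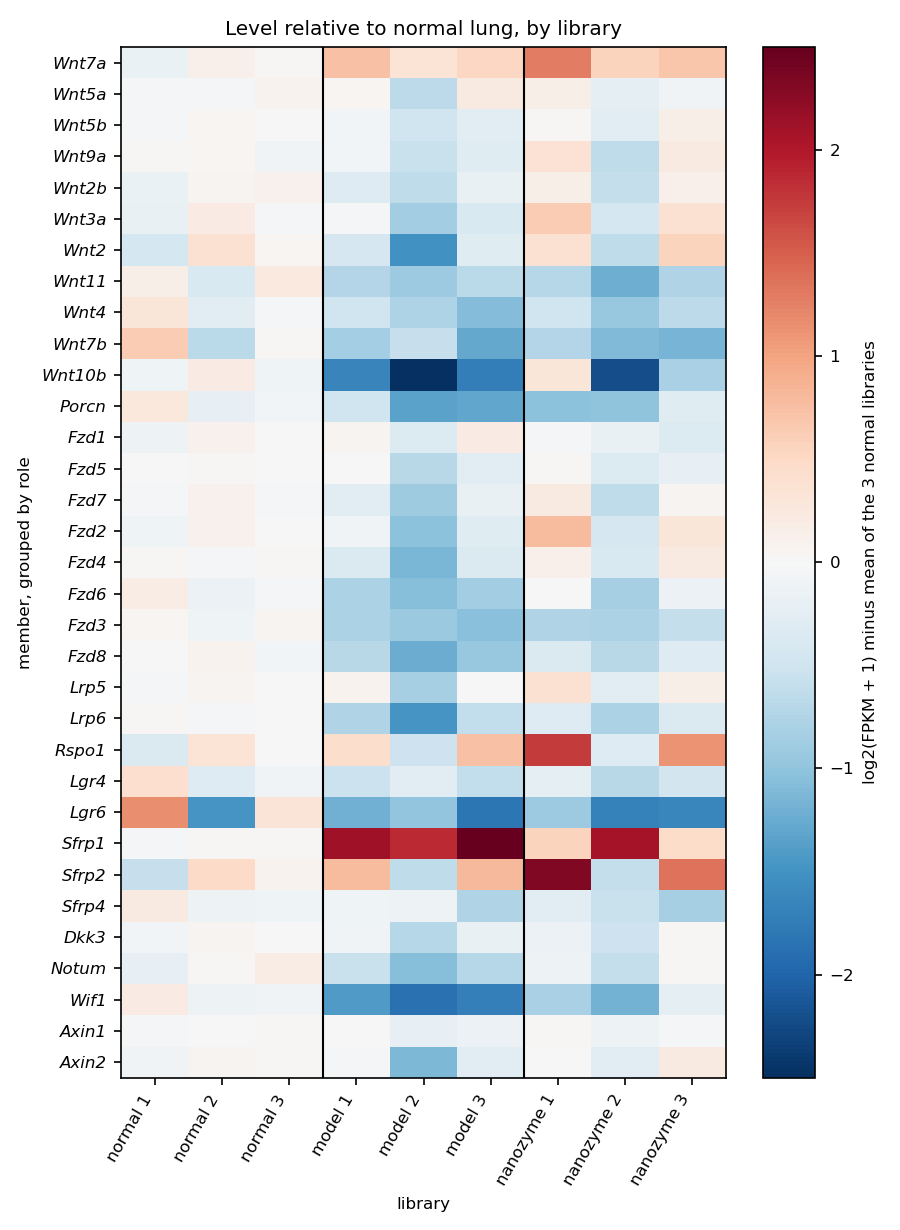
Difference of log2(FPKM + 1) from the mean of the 3 normal libraries for the 33 tested members (rows, by role) in the 9 libraries (columns), on a scale from blue (lower) to red (higher). Model replicate 2 and nanozyme replicate 2 are the bluest columns of their groups, and Sfrp1 is red in the 3 model libraries and in nanozyme replicate 2.

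Secreted inhibitors went in both directions, with 1 of 6 tested higher (16.7%) and 2 lower (33.3%) in model lung. The shares of all tested genes were 17.4% higher and 22.7% lower. Sfrp1, a soluble protein with a Frizzled-like domain that can bind Wnt ligands, was at 4.01, 4.35 and 4.29 FPKM in normal, 21.6, 18.1 and 31.8 in model and 6.63, 20.9 and 6.15 in nanozyme lung. Normal libraries lay within 0.34 FPKM of each other, the model libraries were far above them, and nanozyme replicate 2 was in the model range while replicates 1 and 3 were close above normal. The mean in model lung was 5.65 times that in normal lung, and the change was 2.21 ± 0.40 (adjusted p = 0.00406), kept under the alternatives run (largest adjusted p 0.0177). Sfrp1 lies at chr8:23411502-23449632 on the plus strand. It thus rose while the ligand, receptor and co-receptor calls fell.

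Wif1, Wnt inhibitory factor, fell. Its level was 4.42, 3.33 and 3.46 FPKM in normal, 0.778, 0.295 and 0.439 in model and 1.68, 1.09 and 2.97 in nanozyme lung. The 3 groups did not overlap, with nanozyme lung between the others. In model lung the mean was 0.135 times that in normal lung (-1.66 ± 0.24, adjusted p = 0.00180), and the call was kept in the alternatives run. Wif1 lies at chr10:121033960-121100650 on the plus strand.

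Notum is a secreted carboxylesterase that removes the lipid from Wnt proteins. It was at 3.11, 3.82 and 4.37 FPKM in normal, 2.22, 1.27 and 1.88 in model and 3.36, 2.15 and 3.84 in nanozyme lung. Model libraries lay below the normal ones, and nanozyme replicates 1 and 3 were in the normal range. The change was -0.78 ± 0.20 (adjusted p = 0.0171), and it no longer passed without normal replicate 3 (0.0673) or model replicate 2 (0.0522). Exons of Notum overlap those of 2 antisense genes in GENCODE, and the strand setting of the counting is not given in the sources used here, so reads of the 2 strands cannot be told apart. The same holds for Wnt11, Wnt5a, Wnt7b, Fzd5, Fzd6, Sfrp2 and Axin2, which share 152 to 1233 exon bases with a gene or pseudogene on the other strand.

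Dkk3, a divergent member of the Dickkopf family, was the most abundant tested member. Its place among the secreted inhibitors rests on its symbol, and its effect on Wnt signals was not tested. It was at 24.5, 26.9 and 26.0 FPKM in normal, 24.3, 15.3 and 22.4 in model and 23.3, 17.6 and 26.4 in nanozyme lung. The model libraries lay just below the normal ones apart from replicate 2, which was lower, and the change of -0.33 ± 0.19 did not pass (adjusted p = 0.199). Sfrp4, at 0.272 to 1.64 FPKM, did not pass either (-0.32 ± 0.23, adjusted p = 0.280).

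The Axin scaffolds did not pass. Axin2, the member most often read as a target gene of the canonical branch, was at 5.67, 6.43 and 6.27 FPKM in normal, 5.96, 2.25 and 4.89 in model and 6.12, 4.83 and 7.32 in nanozyme lung. Model replicate 1 lay within the normal range, replicate 3 below it and replicate 2 far below it, and the change was -0.48 ± 0.27 (adjusted p = 0.181). Axin1 was at 14.5, 14.6 and 15.1 FPKM in normal, 14.8, 12.7 and 13.3 in model and 15.1, 13.5 and 14.2 in nanozyme lung. It varied least among these genes, and its estimate of -0.11 ± 0.09 (adjusted p = 0.363) turned to 0.03 under median-of-ratios scaling.

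R-spondins and their receptors had 0 calls among 3 tested in model against normal lung, where 40.1% of all tested genes were called. Rspo1, the only tested R-spondin, was at 3.90, 6.91 and 5.33 FPKM in normal, 7.52, 3.35 and 9.34 in model and 20.1, 4.04 and 12.7 in nanozyme lung. Normal and model libraries overlapped (0.21 ± 0.52, adjusted p = 0.765), and nanozyme replicates 1 and 3 were the highest of the 9. Sfrp2, a secreted inhibitor related to Sfrp1, was at 1.71, 4.61 and 3.26 FPKM in normal, 5.96, 1.60 and 6.06 in model and 18.9, 1.65 and 9.23 in nanozyme lung, in the same order within the nanozyme group (model against normal 0.33 ± 0.71, adjusted p = 0.736). Fzd2 was at 8.60, 10.2 and 9.31 FPKM in normal, 8.79, 4.06 and 7.39 in model and 17, 6.73 and 11.7 in nanozyme lung, again highest in nanozyme replicates 1 and 3 (model against normal -0.47 ± 0.33, adjusted p = 0.276).

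Markers of the mesothelium, the outer lining of the lung, had the same order as these 3 genes within the nanozyme group, but not between normal and model lung, where the marker sum was higher in every model library. The 4 markers Msln, Upk3b, Wt1 and Lrrn4 summed to 29.7 to 30.4 FPKM in normal, 71.7 to 89.0 in model and 205, 33.6 and 135 in nanozyme replicates 1, 2 and 3. None of the 4 was at 0 in all libraries. Of these markers 1, Msln, was higher in model than in normal lung (1.56 ± 0.50, adjusted p = 0.0360), a call that ended with no filter and without any 1 of the normal or model libraries. Without nanozyme replicate 2, 3 of the 4 were higher in nanozyme than in normal lung. B cell markers (4 genes) had the same order in the nanozyme group, with sums of 214, 59.8 and 177 FPKM, against 45.5 to 63.0 in normal and 44.5 to 58.5 in model lung, and none of them was at 0 in all libraries. Smooth muscle and myofibroblast markers (6 genes) had this order in the nanozyme group too, with sums of 239, 97.5 and 164 FPKM, against 275 to 449 in normal lung. So did cardiac muscle markers (4 genes), with 93.8, 7.37 and 17.4 FPKM, against 90.7 to 446 in normal lung. The order was thus not particular to 1 cell type. Nor was it particular to these 3 genes, as Wnt3a, Wnt10b, Fzd7 and Lrp5 had it too. Nanozyme replicate 1 was the highest of its group for 22 of the 33 tested members, and replicate 2 was the lowest for 28. Over all tested genes replicate 2 was the lowest for 48.3%. The part of any of these cell types in the values of Rspo1, Sfrp2 and Fzd2 was not tested.

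**Figure D4:**
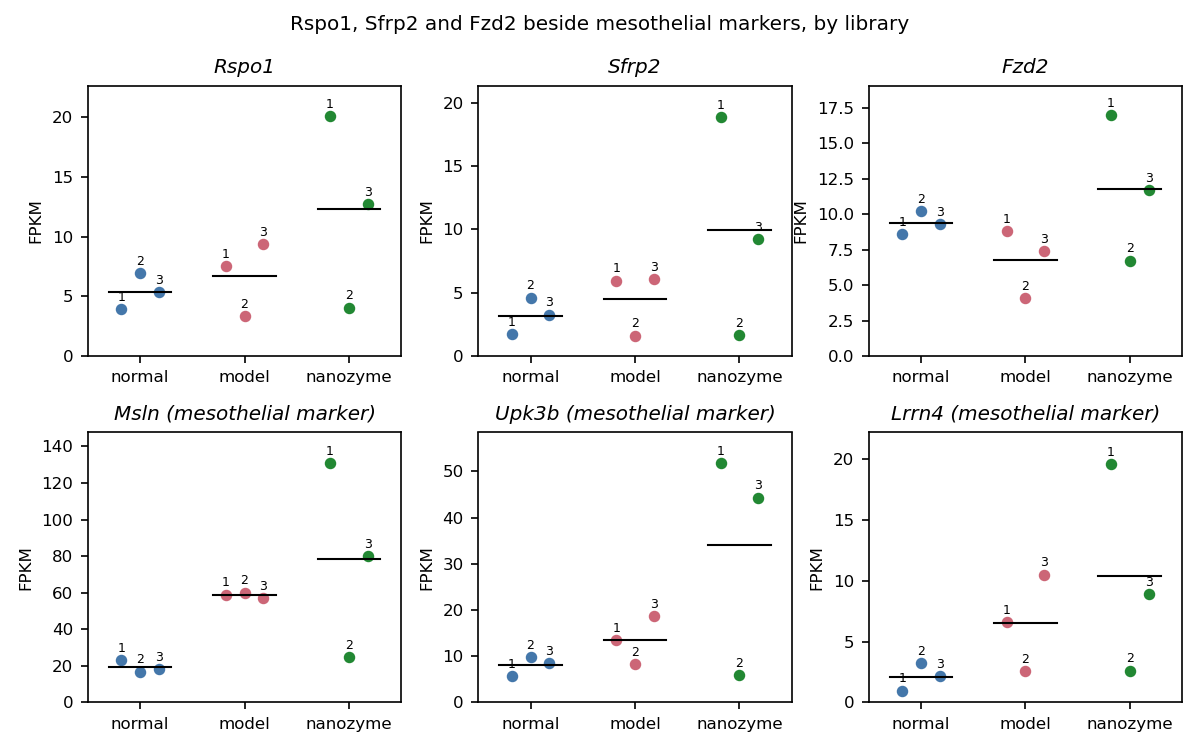
FPKM (linear axis from 0) of Rspo1, Sfrp2 and Fzd2 in the top row and of the mesothelial markers Msln, Upk3b and Lrrn4 in the bottom row, with 1 numbered point per mouse and a line at the group mean. The mesothelial marker Wt1 is not drawn. Nanozyme replicates 1 and 3 are the highest of the 9 libraries for the members in the top row and for Msln and Upk3b, and replicate 2 lies far below them.

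Lgr6 and Lgr4 encode R-spondin receptors and had means of 1.59 and 1.21 FPKM. Lgr6, described here after its values were seen, was at 7.34, 0.353 and 3.67 FPKM in normal and at most 1.01 FPKM in the other 6 libraries. The normal libraries differed among themselves by more than the groups did, and the change did not pass (-1.33 ± 0.60, adjusted p = 0.106) except with sample weights (0.0483) or without normal replicate 2 (0.00826). Smooth muscle and myofibroblast markers (6 genes) had the same order in the normal libraries, with sums of 449, 275 and 345 FPKM, against 83.1 to 144 in model and 97.5 to 239 in nanozyme lung, and 5 of the 6 were lower in model than in normal lung. Cardiac muscle markers (4 genes) followed that order as well, with 446, 90.7 and 250 FPKM in normal, 5.13 to 37.0 in model and 7.37 to 93.8 in nanozyme lung, and 4 of 4 were lower in model than in normal lung. The same order in normal lung was seen for ciliated cell markers (5 genes, 928, 618 and 751 FPKM, against 183 to 337 in model lung). Skeletal muscle markers (4 genes, 8.57, 1.33 and 4.96 FPKM) had it as well. So did macrophage markers (5 genes, 177, 165 and 174 FPKM), which were higher in model lung (663 to 847). None of these markers was at 0 in all libraries, and their part in the values of Lgr6 was not tested. Lgr4 changed by -0.48 ± 0.22 (adjusted p = 0.112).

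Of the untested members, 2 were called once the filter was lowered, and both are named after their values were seen. Wnt6 was at 0.104, 0.193 and 0.0699 FPKM in normal, 0.815, 0.584 and 0.938 in model and 0.623, 0.551 and 0.119 in nanozyme lung. Rspo3 was at 0.387, 0.531 and 0.515 FPKM in normal, 0.800, 1.03 and 0.897 in model and 0.400, 0.533 and 0.353 in nanozyme lung. In both cases the model libraries lay above the normal ones, and for Rspo3 the nanozyme libraries were near normal lung. With a minimum of 0.3 FPKM in 3 libraries, Wnt6 (0.66 ± 0.16, adjusted p = 0.0132) and Rspo3 (0.37 ± 0.11, adjusted p = 0.0257) were higher in model lung, where 16.2% of 16964 genes were higher and 21.4% lower. Wnt6 lies 6.19 kb from Wnt10a on chromosome 1, and Wnt10a reached at most 0.225 FPKM.

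The second comparison set nanozyme lung against model lung. No member passed, 0 of 33, and 0 of the 14540 tested genes did by limma (0%), while an unadjusted p under 0.05 was reached by 6 of the 33 members and by 3211 genes (22.1%). Sample weights called 4 members higher and 1 lower, where 11.4% and 9.44% of all genes were. The groups did not overlap for 3 members (Fzd3, Fzd8 and Wif1), against 16.4% of all genes. The estimate was above 0 for 27 of the 33 members (81.8%), against 62.9% of all genes. The median was 0.29 over the members and 0.09 over all genes. Under median-of-ratios scaling 23 members were above 0, with medians of 0.22 and -0.01. Without model replicate 2 the medians were 0.14 and 0.06. The smallest adjusted p among the members was that of Wif1 (0.92 ± 0.24, adjusted p = 0.181), whose nanozyme mean of 1.91 ± 0.960 FPKM lay between 0.504 ± 0.248 in model and 3.74 ± 0.598 in normal lung. The Sfrp1 estimate was -1.19 ± 0.40 (adjusted p = 0.182), from 23.8 ± 7.15 FPKM in model and 11.2 ± 8.36 in nanozyme lung. This comparison and the first share the model libraries, so values that move in opposite directions in them are not independent.

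The outcome depended on nanozyme replicate 2. Of the 11 members called in model against normal lung, replicate 2 lay within or past the model range for 8 (72.7%), against 64.5% of 5789 called genes with separate groups. Replicate 1 did so for 3 of 11 (27.5% of all such genes) and replicate 3 for 2 of 11 (21.6%). Replicate 2 was also the lowest nanozyme library for 28 of the 33 tested members, against 48.3% of all genes, with a summed level of 185 FPKM beside 296 and 261. It had the lowest resident fibroblast sum (728 FPKM against 2099 and 2596), the lowest endothelial sum (502 against 785 and 802), the lowest alveolar type 2 sum (15604 against 22077 and 28742) and the highest neutrophil sum (3171 against 1068 and 1278) of its group. Its ciliated sum was not the lowest (421 against 339 and 418). The part of these cells in the result was not tested.

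Without that library, 9 members were higher in nanozyme than in model lung (Wnt3a, Wnt9a, Wnt10b, Fzd2, Fzd4, Fzd6, Fzd8, Wif1 and Notum) and 1 was lower (Sfrp1), where 12.5% of all genes were higher and 9.64% lower. Sfrp1 then changed by -1.71 ± 0.21 (adjusted p = 0.00163), with a nanozyme mean of 6.39 FPKM. Wnt10b changed by 1.78 ± 0.40 (adjusted p = 0.0195), Wif1 by 1.13 ± 0.22 (0.0107) and Fzd6 by 0.84 ± 0.14 (0.00540). Members called in model lung but not in this fit were Wnt4 (0.20 ± 0.22, adjusted p = 0.550), Wnt11 (0.03 ± 0.19, 0.919), Porcn (0.39 ± 0.31, 0.411), Fzd3 (0.25 ± 0.14, 0.246) and Lrp6 (0.60 ± 0.23, 0.102). How often genes called in model lung were called in the opposite direction here was not counted over all genes. The library was set aside after its position was known, so the calls made without it describe the other 8 libraries.

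The third comparison set nanozyme lung against normal lung. Wnt7a was higher and Fzd3 and Wnt11 were lower, 3 of 33 members, against 13.9% of all tested genes (8.39% higher and 5.5% lower). The groups did not overlap for 11 members, against 42.9% of all genes. Wnt7a changed by 0.84 ± 0.20 (adjusted p = 0.0289), from 3.37 ± 0.436 to 7.02 ± 2.29 FPKM. Wnt11 changed by -0.90 ± 0.20 (adjusted p = 0.0213), from 11.6 ± 2.74 to 5.74 ± 1.23 FPKM. Fzd3 changed by -0.71 ± 0.13 (adjusted p = 0.0111), from 2.08 ± 0.189 to 0.885 ± 0.144 FPKM. All 3 had moved the same way in model lung, where the Wnt7a change missed the threshold, and both comparisons share the normal libraries.

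These 3 calls ended without normal replicate 1 (adjusted p 0.0535 for Fzd3, 0.0884 for Wnt11 and 0.113 for Wnt7a) or replicate 3 (0.0611, 0.0882 and 0.0898 in the same order). Over all genes, 4.31% were then higher and 1.16% lower without replicate 1, and 4.13% and 1.02% without replicate 3. The Wnt7a call also ended without normal replicate 2 (0.0517) and in a fit of the 2 groups alone (0.0513). Without nanozyme replicate 2 they held, and Rspo1 was called as well (1.44 ± 0.39, adjusted p = 0.0474), with backgrounds of 9.31% higher and 4.26% lower. The mean of Rspo1 in nanozyme replicates 1 and 3 was 16.4 FPKM, beside the mesothelial sums given above.

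The other genes of the pathway were described by 5 lists that hold no member, to be read beside the 17.4% higher, 22.7% lower and median of -0.12 over all tested genes. In the list of the destruction complex and Dishevelled proteins, 17 of 18 genes were tested, with 1 higher and 1 lower in model lung and a median change of -0.26. Tnks2, a tankyrase that marks Axin for degradation, fell from 36.5 ± 1.87 to 25.3 ± 2.58 FPKM (-0.52 ± 0.10, adjusted p = 0.00612). Gsk3a, a kinase of the complex, rose from 39.6 ± 1.20 to 51.1 ± 4.79 FPKM (0.35 ± 0.10, adjusted p = 0.0256). The Gsk3a call ended under quantile normalization (0.0977) and without normal replicate 1 (0.0800), 2 (0.0567) or 3 (0.0893) or model replicate 1 (0.0696).

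All 16 genes of the list of beta-catenin and its nuclear partners were tested, and 1 was higher and 3 were lower in model lung (median -0.23). Ctnnb1, which encodes beta-catenin, fell from 333 ± 11.4 to 195 ± 22.0 FPKM (-0.77 ± 0.12, adjusted p = 0.00240). Its values were 343, 321 and 337 FPKM in normal, 212, 170 and 203 in model and 207, 224 and 250 in nanozyme lung. Every normal library lay above the other 6. The corepressor Tle1 (-0.59 ± 0.11, adjusted p = 0.00515) and the coactivator Pygo1 (-0.76 ± 0.16, adjusted p = 0.00798) fell too. Tle3, a corepressor of the same family as Tle1, rose from 14 ± 1.78 to 25.3 ± 1.45 FPKM (0.81 ± 0.19, adjusted p = 0.0122).

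Secretion factors and surface cofactors were tested for 12 of 20 genes, with 0 higher and 3 lower (median -0.55). Tspan12, a tetraspanin that works with Fzd4 in Norrin signalling, fell from 38.2 ± 1.44 to 12.1 ± 2.51 FPKM (-1.60 ± 0.24, adjusted p = 0.00197). Lypd6, a membrane-anchored enhancer of Lrp6 signalling, fell as well (-0.81 ± 0.15, adjusted p = 0.00481). So did Kremen1, a receptor for Dickkopf proteins (-0.54 ± 0.15, adjusted p = 0.0209). That last call ended with equal column sums (0.0677) and without normal replicate 1 (0.0778) or 3 (0.0643) or model replicate 2 (0.0610) or 3 (0.0622).

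The planar cell polarity and non-canonical list had 15 of 17 genes tested, 1 higher and 7 lower, with a median of -0.28. Ryk, a receptor-like kinase that binds Wnt ligands, fell from 42.2 ± 0.752 to 28.2 ± 2.76 FPKM (-0.57 ± 0.11, adjusted p = 0.00582). Vangl1, a core planar polarity protein, fell by 0.62 ± 0.13 (adjusted p = 0.00680), the atypical cadherin Celsr2 by 0.92 ± 0.21 (0.0104) and the formin-like Daam2 by 1.20 ± 0.28 (0.0109), all on the log2 scale. The 1 gene that rose was Ror2, a receptor for Wnt5a (0.77 ± 0.20, adjusted p = 0.0159), a call that ended without normal replicate 1 or model replicate 3. Among the 7 lower, the calls of Prickle1 (adjusted p = 0.0335) and Prickle2 (0.0298) each ended under 5 of the 19 alternatives. Equal column sums were among these (0.0632 and 0.0635).

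Feedback and other target genes were tested for 14 of 20, with 2 higher and 6 lower and a median of -0.47. The 2 that rose were Myc (1.0 ± 0.18, adjusted p = 0.00410) and Cd44 (1.47 ± 0.36, adjusted p = 0.0127). Genes of this list, those that fell included, can also be under the control of other pathways. The output of the Wnt pathway was not tested. Bambi, a pseudoreceptor that dampens TGF-beta signals, fell from 6.68 ± 0.456 to 2.65 ± 0.668 FPKM (-1.09 ± 0.24, adjusted p = 0.00832). Nkd2, a feedback inhibitor that acts on Dishevelled, fell from 2.45 ± 0.314 to 0.894 ± 0.340 FPKM (-0.88 ± 0.19, adjusted p = 0.00878). Other lower calls of this list were less stable. Those of Ephb3 (adjusted p = 0.0479), Znrf3 (0.0416) and Rnf43 (0.0270) ended under 12, 9 and 5 of the 19 alternatives. Equal column sums were among these for each (0.0907, 0.0867 and 0.0635). The call of Tnfrsf19 (0.0143) ended without normal replicate 1 (0.0503).

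**Figure D5:**
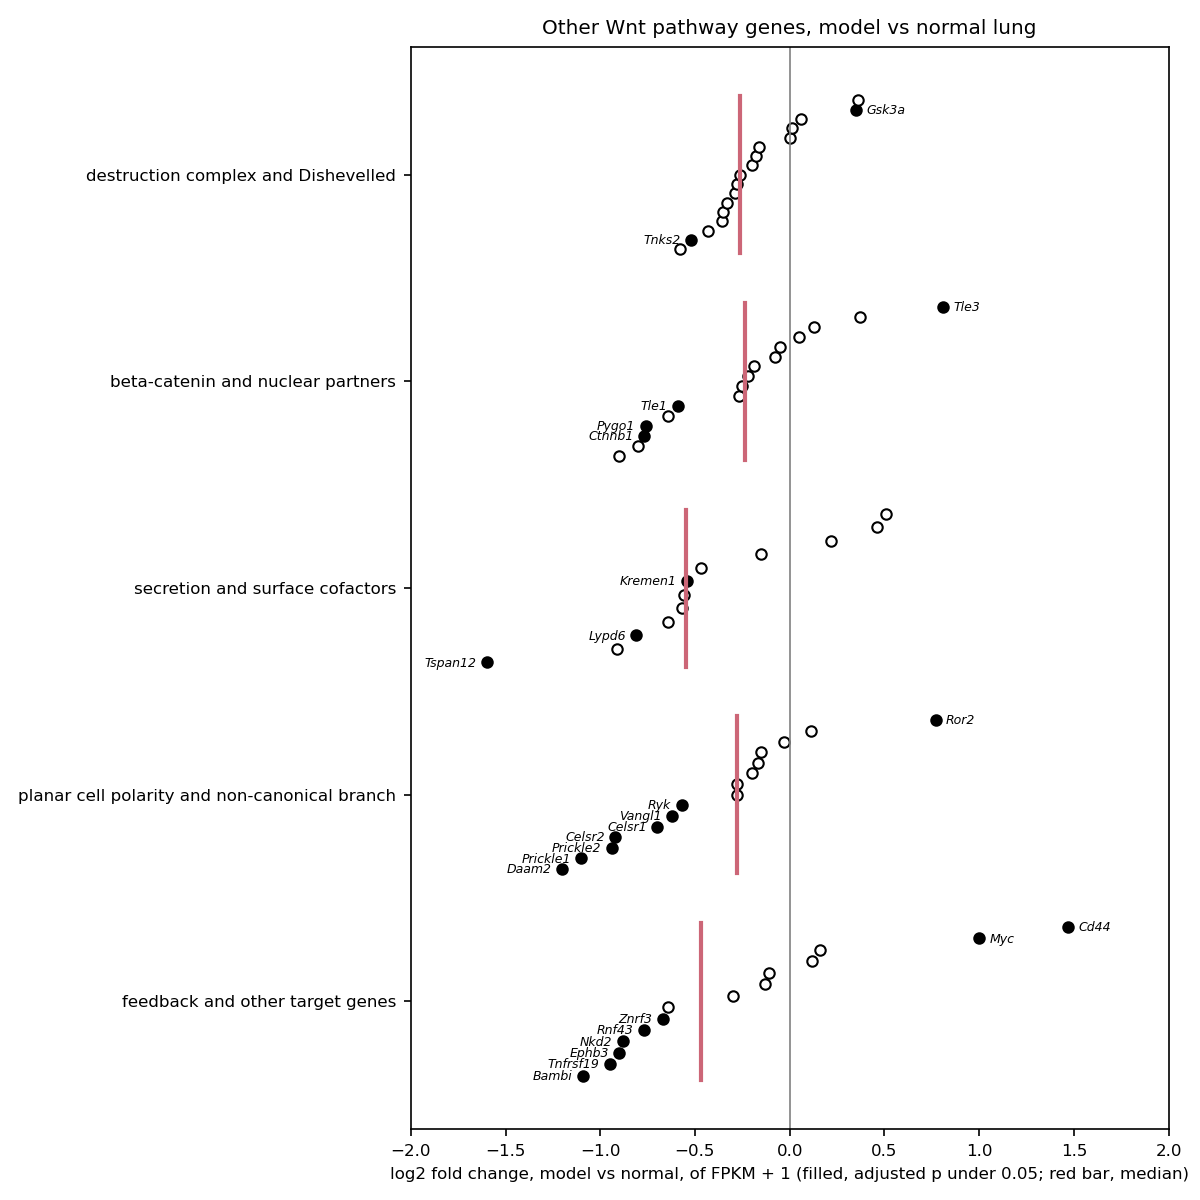
Log2 fold change of FPKM + 1 in model against normal lung for the tested genes of the 5 lists, with filled and named points for adjusted p under 0.05 and a red bar at the median of each list. The 5 medians lie between -0.55 and -0.23, left of 0.

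In nanozyme against model lung 0 genes of the 5 lists passed. Without nanozyme replicate 2, Tspan12 (1.13, adjusted p = 0.00303), Daam2 (0.99, 0.00586) and Bambi (0.97, 0.00581) were higher and Tle3 (-0.98, 0.00293) and Cd44 (-0.96, 0.0294) were lower among the genes named above. In nanozyme against normal lung 5 genes of the lists were lower and 1 was higher, with 17, 16, 12, 15 and 14 genes tested per list. Over all tested genes 5.5% were lower and 8.39% higher in this comparison. Lypd6 was lower by -0.95 ± 0.15 (adjusted p = 0.00648) and Celsr1 by -0.87 ± 0.17 (0.0127). Celsr1 no longer passed without normal replicate 1 (0.0554) or 3 (0.0572). Ctnnb1 was lower (-0.56 ± 0.12, adjusted p = 0.0209), and that call ended without normal replicate 1 (0.0898) or 3 (0.0877), without nanozyme replicate 1 (0.0643) and with equal column sums (0.0636). For Tle1 (-0.43 ± 0.11, adjusted p = 0.0400), Ryk (-0.41 ± 0.11, 0.0458) and Myc (0.66 ± 0.18, 0.0466) the call ended under most ways of leaving out 1 library, with adjusted p up to 0.149, and with equal column sums (0.123, 0.154 and 0.0556).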

How the data were processed

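RNA from the lungs of 9 mice was sequenced, and the authors deposited 1 table of FPKM values with 1 column per library. HISAT2 and GRCm38 are the aligner and build named per the submitters' processing notes. The counter and its strand setting, the annotation, versions and any filter are not given in the sources used here, so reads of overlapping genes and the depth behind low values could not be assessed. Gene positions were taken from GENCODE vM21 for the same build, where all 51 members matched by symbol.

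Tests used limma 3.58.1 in R 4.3.3 on log2(FPKM + 1), which understates the change of low genes. All 9 libraries entered 1 fit with 1 coefficient per group and an intensity trend, for genes with FPKM of at least 1 in at least 3 libraries. Two-sided p-values were Benjamini-Hochberg adjusted over the 14540 tested genes within each of 3 comparisons, with 0.05 as the threshold. The fit was tested on simulated data with normal noise and no outlying library. In each comparison 200 of the 14540 genes were changed, whereas 40.1% were called in model against normal lung in the data. The rates below hold for that setting and are not the power of these comparisons. Of 100 genes given a log2 change of 1, the fit recovered 65% in model against normal, 64% in nanozyme against model and 52% in nanozyme against normal lung. With a log2 change of 2 it recovered 88%, 80% and 92% in the same order. Ratios of means are of FPKM itself.

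Members and lists were chosen with earlier results of these data known. Values in each library were given for tested members that were called in any comparison or had a mean FPKM of at least 5. From each pathway list up to 4 called genes with the smallest adjusted p were named for model against normal lung, and up to 2 for the other comparisons, and genes outside this rule are marked or mentioned only by a call. Alternatives were sample weights, a replicate block, each library left out, a fit without the intensity trend, a fit of the 2 groups alone, a pseudocount of 0.1, a minimum of 0.3 FPKM or no filter, and scaling by quantiles, by median of ratios or to equal sums. Figures used matplotlib 3.10.9 in Python 3.11.15.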

Additional observations from a re-analysis of the deposited data

How the results depend on the processing

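In model against normal lung the count of members called higher was 1 in the reported fit, 3 with no filter or a minimum of 0.3 FPKM, and 2 with median-of-ratios scaling, quantile normalization, the 2 groups alone or sample weights, and it ran from 1 to 2 when 1 library was left out. The count called lower was 10, was 13 with sample weights, and ran from 6 (without normal replicate 1) to 11 with 1 library left out. For nanozyme against model lung, sample weights gave 4 higher and 1 lower in place of 0 and 0, and leaving out 1 library gave 0 to 9 and 0 to 1. For nanozyme against normal lung the count higher (1) was 0 with the 2 groups alone and 4 with sample weights, and ran from 0 to 2 with 1 library left out, and the count lower (2) was 5 with quantile normalization and 8 with sample weights, and ran from 0 to 4. The labels do not say whether libraries with the same replicate number share a batch or a pairing. Deviations from the group means correlated at -0.331 to 0.227 between same-numbered libraries of different groups and at -0.358 to 0.385 between differently numbered ones. With 3 libraries per group these values cannot settle the question. With the replicate block the counts were 1 higher and 11 lower, 0 and 0, and 1 and 3 in the 3 comparisons, with Fzd4 added in model against normal (adjusted p = 0.0244) and Wnt4 in nanozyme against normal lung (0.0319). The estimation of the sample weights stopped before it reached its convergence tolerance.

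The sign turned under at least 1 alternative for 5 of the 33 members in model against normal, 9 in nanozyme against model and 12 in nanozyme against normal lung, 0 of them called in that comparison, and the cause was not tested. In model against normal lung they were Fzd1 (0.06 with equal column sums, 0.12 with median-of-ratios scaling, 0.01 with quantile normalization, 0.06 with sample weights, 0.04 without normal replicate 2, and -0.13 to 0.14 over the libraries left out), Axin1 (0.03 with median-of-ratios scaling), Lrp5 (-0.42 to 0.05, turned without model replicate 2), Wnt5a (-0.30 to 0.14, likewise) and Rspo1 (-0.04 to 0.58, turned without model replicate 3). In nanozyme against model lung they included Wnt4 (-0.01 with median-of-ratios scaling, -0.06 with quantile normalization, -0.02 without nanozyme replicate 1, and -0.07 to 0.23 over the libraries left out) and Wnt11 (-0.22 to 0.03, turned without nanozyme replicate 2). Over all genes, the share of calls that were higher in model lung moved from 43.4% to 54.2% with equal column sums and 55.3% with median-of-ratios scaling, and in nanozyme against normal lung from 60.4% to 70.4% with equal column sums and 46.8% with quantile normalization.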
